A study of Mus musculus with 4 samples.

Results

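The proteasome subunit genes were followed in lung tissue carrying metastases of 4T1, a mouse triple-negative breast cancer (TNBC) cell line. They were chosen by symbol, as the protein-coding genes of the count table named Psma, Psmb, Psmc, Psmd, Psme, Psmf or Psmg with a number, without the immunoproteasome subunits Psmb8, Psmb9 and Psmb10. The rule gave 48 of the 56748 genes of the table, of which 21970 are protein-coding. By the first letters of the symbol, 16 genes belong to the 20S core, 21 to the 19S cap, and 11 to the activators, the inhibitor and the assembly chaperones. The rule used no measured value. It also takes in Psmc3ip, a recombination factor, and Psme3ip1, a partner of an activator, neither of which is a subunit, and 5 pseudogene rows whose symbols match were not included.

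Female BALB/cJ mice, 7 weeks old at injection, received luciferase-labelled 4T1-FLuc cells through the tail vein. Once metastasis was detected, one group received saline (2 libraries) and the other cmLumiOpto/PARPi (2 libraries), over 3 weeks. cmLumiOpto is an AAV carried on exosomes that are tagged with an antibody to CD276. From the c-fos promoter it expresses a luciferase and a light-gated channel for the inner mitochondrial membrane, and ViviRen, given at 2 mg/kg, is the substrate that lights it. The PARP inhibitor was olaparib at 50 mg/kg, and since vector, ViviRen and olaparib came together, their shares in a difference cannot be told apart. The labels speak of harvested tumour cells and a PBS control, whereas the study's methods speak of dissociated lung tissue and saline, and the latter terms are used here.

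The 26S proteasome degrades proteins that carry ubiquitin chains. Its 20S core is a barrel of a pair of outer rings of Psma products and a pair of inner rings of Psmb products, and the products of Psmb5, Psmb6 and Psmb7 hold its active sites. The 19S cap sits on the barrel ends. Its base holds the ring of Psmc ATPases that unfold the substrate together with the large scaffold proteins Psmd1 and Psmd2, and its lid holds Psmd14, the enzyme that removes the ubiquitin chain. Under proteasome shortage the transcription factor Nfe2l1 is known to induce the subunit genes together, through antioxidant response elements (AREs) in their promoters, and other subunit promoters are known for binding sites of NF-Y and of ETS factors.

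The RefSeq promoter table (GRCm38.p6; 250 bases before to 50 after each start) held 44 promoters of 40 of the 48 members. The ARE core TGACNNNGC, searched on both strands, was present in 6 of them (13.6%), those of Psmb5, Psmb6, Psmc6, Psmd9, Psmd12 and Psme4, against 12.4% of all 32851 promoters. The NF-Y box CCAAT was present in 15 (34.1%), against 37.4% of all promoters. The ETS core CCGGAAG was present in 17 (38.6%), against 8.86% of all promoters, and these 17 were unevenly spread. Of the 19 cap promoters 11 held it (57.9%), of the 12 promoters of activators and chaperones 5 (41.7%), and of the 13 core promoters 1 (7.69%), that of Psma6. Core promoters more often held CCAAT, 7 of 13 (53.8%) against 6 of 19 in the cap (31.6%). These shares are descriptions of letters in a short window, with no test, and not of factor binding.

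The 120 bases before the start are given for Psmb5 and Psmb6, the only core members whose table promoters held the ARE core, since both encode catalytic subunits whose levels are described below. They are shown with those of 4 cap members that held the ETS core: the ATPase Psmc1, the scaffold Psmd2 and the lid subunits Psmd11 and Psmd12. Each reads 5′ to 3′ on the strand of its gene, with the ARE core in capitals in the first pair and the ETS core, here as its reverse complement CTTCCGG, in capitals in the others. In Psmb5 (minus strand, chr14:54617996-54618115) the motif begins 47 bases before the start and in Psmb6 (plus strand, chr11:70525237-70525356) 9 bases before it. In the plus-strand cap genes it begins 28 bases before the start of Psmc1 (chr12:100110082-100110201), 26 before that of Psmd2 (chr16:20651532-20651651), 11 before that of Psmd11 (chr11:80428495-80428614) and 17 before that of Psmd12 (chr11:107479408-107479527). All these starts are those of RefSeq. GENCODE M21, used for gene coordinates below, starts Psmc1 at 100110154 and Psmd12 at 107479484, so there the marked motifs lie inside the gene. The Psmb5 window also reaches into the M21 gene, which ends at 54618022.
Psmb5: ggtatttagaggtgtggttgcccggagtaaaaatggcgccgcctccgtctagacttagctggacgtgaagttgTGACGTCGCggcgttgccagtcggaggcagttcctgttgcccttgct
Psmb6: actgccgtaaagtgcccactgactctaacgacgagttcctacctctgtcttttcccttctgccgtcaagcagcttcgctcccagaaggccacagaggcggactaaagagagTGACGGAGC
Psmc1: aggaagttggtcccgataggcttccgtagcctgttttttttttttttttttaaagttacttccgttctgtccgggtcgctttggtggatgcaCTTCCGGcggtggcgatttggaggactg
Psmd2: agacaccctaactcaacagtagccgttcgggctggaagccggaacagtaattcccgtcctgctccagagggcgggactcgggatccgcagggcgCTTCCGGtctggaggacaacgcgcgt
Psmd11: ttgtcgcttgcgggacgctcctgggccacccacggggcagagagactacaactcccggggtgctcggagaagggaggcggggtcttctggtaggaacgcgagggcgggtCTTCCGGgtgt
Psmd12: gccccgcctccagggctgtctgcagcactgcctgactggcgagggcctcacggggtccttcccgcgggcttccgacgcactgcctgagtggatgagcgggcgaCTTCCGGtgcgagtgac

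Total gene counts were 16086720 and 15263375 in saline replicates 1 and 2, and 16755228 and 16509603 in treated replicates 1 and 2. Levels are given in that order as CPM, counts scaled to a common library size with TMM factors, so that 3 counts correspond to 0.173 to 0.204 CPM. A difference is given as a log2 fold change of treated over saline libraries. Over all 15167 genes with enough counts, the quasi-likelihood test of edgeR called 0 genes (0%) at a Benjamini-Hochberg adjusted p under 0.05, with 3221 at an unadjusted p under 0.05. DESeq2 called 1011. The labels number the libraries but tie none to a mouse, so p-values measure only the spread between these libraries, and an exact permutation of 2 against 2 cannot give a two-sided p below 0.333. Chi-square per degree of freedom between libraries of one group was 25.2 for saline and 45.4 for treated, so counting error alone, which is all that the floor covers, understates the spread.

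Of the 48 members 47 were tested, and 0 passed the adjusted threshold in the quasi-likelihood test, where the smallest adjusted p was 0.139, for Psmd13. DESeq2 called Psmd13 alone. Without adjustment 13 members had a p under 0.05. Of these, 11 were higher after treatment (23.4% of the tested members, against 9.21% of all tested genes) and 2 lower (4.26%, against 12%). In 25 members the pair of treated libraries lay wholly above the saline pair (53.2%, against 27.4% of all tested genes) and in 4 below (8.51%, against 27.8%). The median log2 fold change was 0.19 over the members and 0.02 over all tested genes. Together they took 0.614% and 0.635% of the scaled counts in saline, and 0.658% and 0.699% after treatment. In bulk tissue, fewer cells of a type and less RNA per cell cannot be told apart.

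The 20S core stood higher in the treated libraries in most of its subunits. Of its 15 tested members 13 lay wholly above the saline libraries (86.7%, beside 27.4% of all tested genes) and 0 below (beside 27.8%), and 5 had an unadjusted p under 0.05 in the higher direction (33.3%, against 9.21% of all tested genes) and 0 in the lower (against 12%). Of the 14 subunits of the standard barrel, the 13 without overlap are all but Psmb7, and the median log2 fold change was 0.26. These counts of 13 and 14 held with TMM, RLE, upper quartile and library size scaling. Upper quartile scaling moved the median of all genes to 0.13 and that of the core to 0.36, and the share of higher genes among all with an unadjusted p under 0.05 from 43.4% with TMM to 63.8% (library size alone, 54.3%). Genes with short mRNAs were higher too. In the shortest length group described below, which holds 12 of the core genes, the median was 0.33 over all genes and 0.24 over those 12. The count of 5 rests on all libraries, since it was 1 without saline replicate 1, 2 without saline replicate 2, and 1 without either treated replicate.

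**Figure D1:**
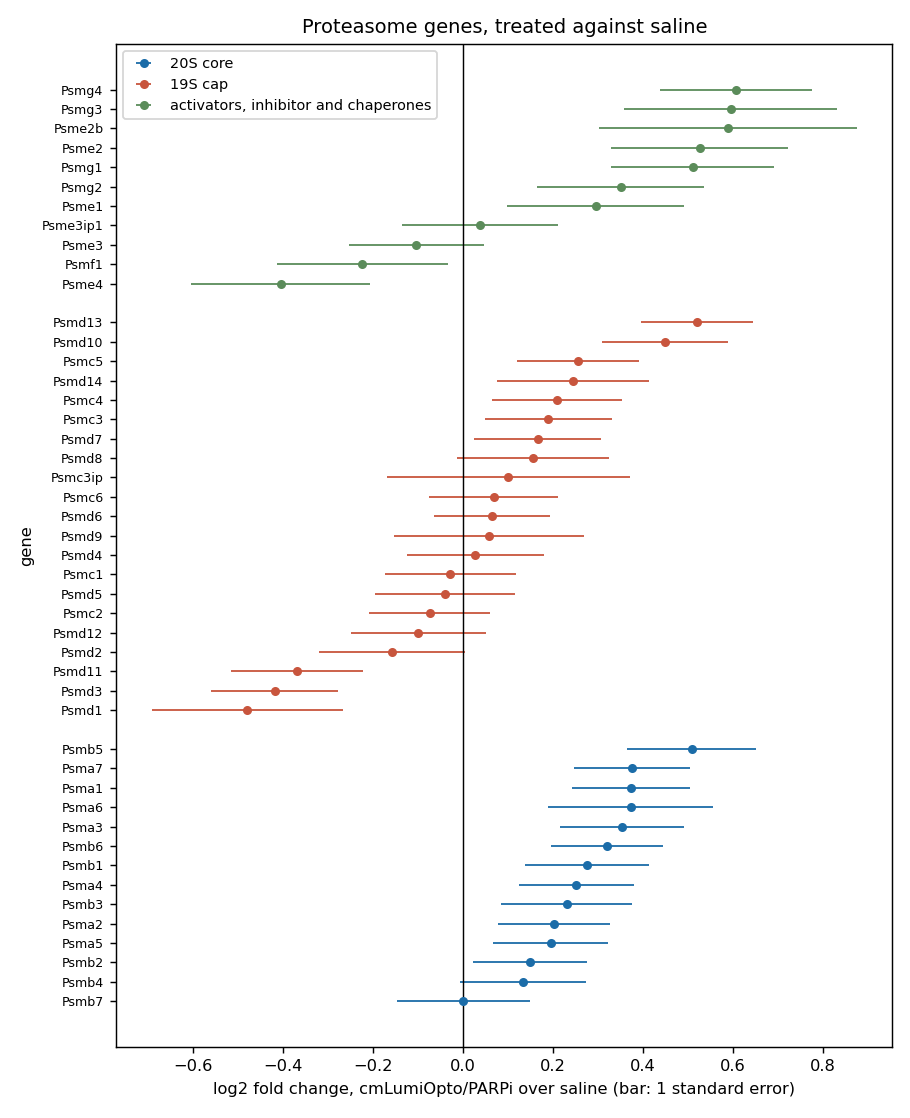
Log2 fold change of treated over saline libraries (x axis; bars, 1 standard error) for 46 members, grouped as 20S core (blue), 19S cap (red) and activators, inhibitor and chaperones (green); Psma8, with few counts, is left out. The core points all lie at or above 0, between 0.00 for Psmb7 and 0.51 for Psmb5, while the cap points run from -0.48 for Psmd1 to 0.52 for Psmd13.

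Products of the outer ring genes form the gate of the barrel. All 7 of these genes lay above saline in both treated libraries (100%, beside 27.4% of all genes). The summed level of the 7 was 1050 and 1154 CPM in saline and 1361 and 1366 CPM in treated libraries. Psma7 (chromosome 2, 180036374 to 180042433 in GRCm38) had the highest fold change of the ring, with levels of 187, 193, 249.8 and 244 CPM. Its groups lay far apart beside their own spread, with a log2 fold change of 0.38 (SE 0.13) and an adjusted p of 0.195 by edgeR's quasi-likelihood test. Psma1 was at 121, 131, 169 and 158 CPM (log2 fold change 0.37, SE 0.13), and Psma6, more spread in saline, at 179, 241, 259 and 285 CPM (0.37, SE 0.18). Psma3 was at 101, 118, 138 and 141 CPM (0.35, SE 0.14). Psma7, Psma1 and Psma3 were the members of the ring with an unadjusted p under 0.05 (42.9%, beside 9.21% of all genes). The lowest fold change was that of Psma5, at 180.0, 188, 210.0 and 211 CPM (0.19, SE 0.13), whose reads a near-identical pseudogene copy may share. Psma2 stood close to it at 125, 129, 144 and 148 CPM (0.20, SE 0.12), and another gene of the same strand overlaps it.

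In the inner rings 6 of 7 genes lay above saline (85.7%, beside 27.4% of all genes). The summed level of the 7 was 1111 and 1121 CPM in saline and 1223 and 1350 CPM in treated libraries. The catalytic subunits did not move alike. Psmb5 (chromosome 14, 54614119 to 54618022), which encodes the chymotrypsin-like subunit that bortezomib blocks, was at 50.8 and 50.8 CPM in saline and at 66.9 and 77.7 CPM after treatment. This was the largest fold change of the core, 0.51 on the log2 scale (SE 0.14), with an adjusted p of 0.158 by edgeR's quasi-likelihood test. Psmb6 (chromosome 11, 70525367 to 70527858), the caspase-like subunit, was at 125, 123, 151 and 158 CPM (log2 fold change 0.32, SE 0.12), again without overlap. Psmb7 (chromosome 2, 38588036 to 38644087), the trypsin-like subunit, was at 109.9, 129.6, 113 and 126 CPM, so that its treated libraries fell inside the saline range and the log2 fold change was 0.00075 (SE 0.15). Its gene is overlapped on the other strand by Nek6, which had 5516 counts over the 4 libraries, and the strand setting of the counting was not stated.

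**Figure D2:**
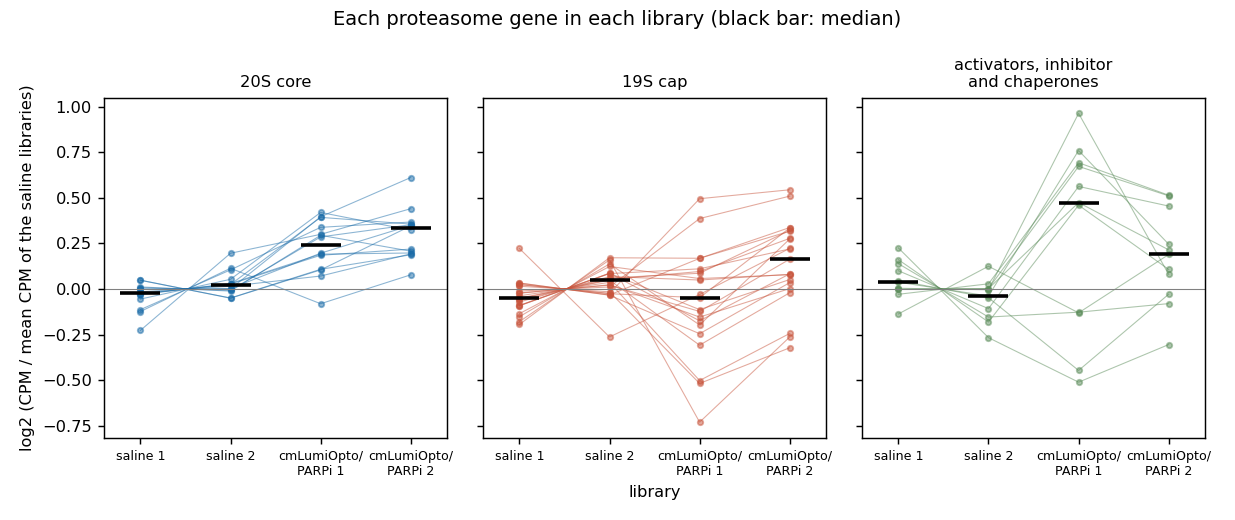
Level of each member in each of the 4 libraries (y axis, log2 of its CPM over the mean CPM of the saline libraries; lines join one gene, black bars are medians over genes), in 3 panels for core, cap and the remaining members, without Psma8. Core genes sit above 0 in both treated libraries with 1 exception in treated replicate 1, Psmb7, whereas cap genes spread to both sides of 0, most of all in treated replicate 1.

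The core genes that mark other tissues were near or under detection. Psma8, the outer ring subunit of male germ cells, had 10, 7, 11 and 3 counts (0.627, 0.477, 0.633 and 0.181 CPM), with overlapping groups. Psmb11, the inner ring subunit of thymic epithelium, had 0 counts in all 4 libraries, which allows up to 3 counts in each, and was not tested.

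The 19S cap was mixed. Of its 21 members 6 lay above the saline libraries (28.6%, beside 27.4% of all genes), 3 below (14.3%, beside 27.8%) and 12 overlapped. The median log2 fold change was 0.07. At an unadjusted p under 0.05 there were 2 higher members (9.52%, beside 9.21% of all genes) and 2 lower (9.52%, beside 12%). With upper quartile scaling the median was 0.17, with 3 higher and 0 lower members, and with library size alone 3 were higher and 1 lower. Without single libraries the higher members numbered 1 to 2 and the lower ones 0 to 3.

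Within the base, the 6 ATPases had a median log2 fold change of 0.13, and none had an unadjusted p under 0.05. Of the 6, 3 lay above the saline libraries (50%, beside 27.4% of all genes) and 0 below (beside 27.8%). Psmc5 was the highest of them at 150.4, 144, 165 and 186 CPM (log2 fold change 0.26, SE 0.14), and Psmc2 the lowest at 185, 191, 169 and 188 CPM (-0.07, SE 0.13), with overlap. The 3 other base subunits had a median of -0.16. Psmd1 (chromosome 1, 86064387 to 86139151), the scaffold on which other cap proteins dock, was at 229.8 and 291 CPM in saline and at 157 and 217 CPM after treatment. Both treated libraries lay below saline, but they also lay far from each other, and the log2 fold change was -0.48 with SE 0.21. It was -0.26 without treated replicate 1, -0.30 without saline replicate 2, -0.74 without treated replicate 2, and -0.25 with the offsets on mRNA length described below. The other scaffold, Psmd2, was at 365, 391, 305 and 373 CPM (-0.16, SE 0.16), and the ubiquitin receptor Psmd4 at 186, 192, 173 and 211 CPM (0.03, SE 0.15), both with overlap. Adrm1, a ubiquitin receptor of the base that the symbol rule does not reach, was at 101, 114, 88.9 and 101 CPM (-0.18, SE 0.14).

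Of the 8 lid genes 2 lay above the saline libraries (25%, beside 27.4% of all genes) and 2 below (25%, beside 27.8%). Psmd13 (chromosome 7, 140881968 to 140898643), a structural lid subunit, was at 107 and 103 CPM in saline and at 148 and 153 CPM after treatment. The gap between groups was wide beside the spread within them, and the log2 fold change of 0.52 (SE 0.12) gave the smallest adjusted p of the members, 0.139 by edgeR's quasi-likelihood test. The pseudogene Gm15542 lies within it on the same strand (417 counts over the 4 libraries) and Sirt3 overlaps it on the other strand (318 counts). Psmd3 (chromosome 11, 98682554 to 98695979), another structural lid subunit, moved the other way, from 257 and 252 CPM in saline to 178 and 204 CPM after treatment (log2 fold change -0.42, SE 0.14, adjusted p 0.190 by the same quasi-likelihood test). Psmd11, a lid subunit whose level is known to set 26S assembly in stem cells, was likewise lower in both treated libraries, at 156, 164, 113 and 135 CPM (-0.37, SE 0.15). Psmd14, the deubiquitinase, was at 100.3, 129, 129 and 143 CPM (0.25, SE 0.17), and saline replicate 2 reached into the treated range. Its log2 fold change was 0.07 without saline replicate 1 and 0.44 without saline replicate 2. Sem1, the smallest lid subunit, which has no Psm symbol, was at 100.3, 98.7, 147 and 140.1 CPM (0.53, SE 0.12).

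Among the cap-named assembly chaperones, which hold parts of the base before it closes, Psmd10 was at 39.4, 40.1, 52.0 and 56.6 CPM (log2 fold change 0.45, SE 0.14), without overlap and with an unadjusted p under 0.05. Psmd5 was at 67.7, 76.6, 63.9 and 76.4 CPM (-0.04, SE 0.15). The recombination factor Psmc3ip was at 13.2, 9.40, 11.1 and 13.2 CPM (0.10, SE 0.27), and Mlx overlaps it on the other strand.

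The 4 chaperones that build the core ring, Psmg1 to Psmg4, were all above the saline libraries after treatment (100%, beside 27.4% of all genes), with a median log2 fold change of 0.55. An unadjusted p under 0.05 was found for 3 of them (75%, beside 9.21% of all genes), and for none with the offsets on mRNA length described below. Psmg4 (chromosome 13, 34162964 to 34178173) was at 20.8, 21.6, 34.3 and 30.3 CPM, and its log2 fold change of 0.61 (SE 0.17, adjusted p 0.157 by edgeR's quasi-likelihood test) was the largest of all members. Its partner Psmg3 was at 8.22, 8.25, 13.1 and 11.7 CPM (0.59, SE 0.24). Psmg1 was at 19.8, 17.1, 27.2 and 25.3 CPM (0.51, SE 0.18) and its partner Psmg2 at 19.6, 19.6, 27.2 and 22.7 CPM (0.35, SE 0.19). Pomp, the chaperone that closes the core and that the rule does not reach, was at 133, 147, 203 and 165 CPM (0.40, SE 0.16). The direction of Psmg1 to Psmg4 and their lack of overlap held under all 4 scalings.

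Core and cap were then set side by side. Median log2 fold changes were 0.25 for the core and 0.07 for the cap, a difference of 0.19. In mean log2 CPM per library, core minus cap was -0.24 and -0.28 in saline and 0.03 and -0.20 after treatment, a shift of 0.18. The spread between replicates of this measure was 0.12 (pooled SD), and treated replicate 2 lay close to saline. The core mean includes Psma8, which had 11 counts in treated replicate 1 and 3 in treated replicate 2. Over the standard subunits alone, without germ cell, thymus and chaperone genes, core minus cap was -0.15 and -0.18 in saline and 0.15 and 0.02 after treatment, a shift of 0.25 with no overlap. There the SD was 0.02 in saline and 0.09 after treatment. As shares of all scaled counts, the standard core took 0.216% and 0.227% in saline and 0.258% and 0.272% after treatment, and the standard cap 0.287%, 0.308%, 0.271% and 0.315%. The core thus stood higher in both treated libraries, while the cap had its lowest and its highest value among the treated pair. Without treated replicate 1 the shift of 0.18, which includes Psma8, was 0.06. Over the standard subunits, treated replicate 2 stood above both saline libraries.

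Gene length moved with this difference. Over the 13418 tested genes with a protein-coding transcript in GENCODE M21, log2 fold change and median mRNA length had a Spearman rho of -0.46, and over the 47 tested members -0.71. These are correlations across genes that share the same 4 libraries and are given as descriptions. Core mRNAs had a median of 1160 bases and cap mRNAs of 1591, against 2715 over all genes. The shortest of 5 equal groups of genes (255 to 1546 bases) had a median log2 fold change of 0.33, and it held 12 of the core genes (median 0.24) and 9 of the cap genes (median 0.21). In the next group, up to 2315 bases, the median was 0.11 over all genes, 0.31 over 2 core genes and -0.05 over 8 cap genes.

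**Figure D3:**
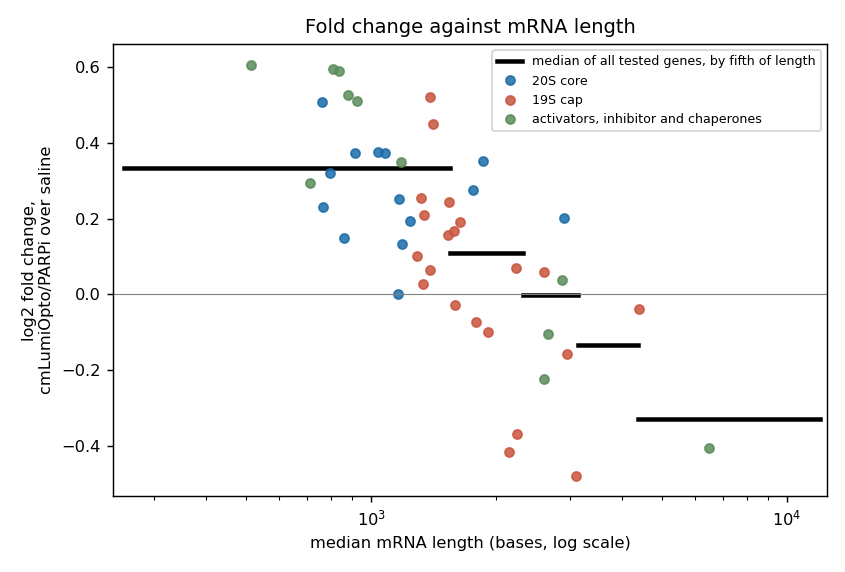
Log2 fold change of treated over saline libraries (y axis) against the median length of the protein-coding mRNAs of each gene (x axis, bases, log scale) for members of the core (blue), the cap (red) and the remaining classes (green), without Psma8. Black bars are the medians of all tested genes in 5 groups of length, falling from 0.33 in the shortest to -0.33 in the longest, and most core genes lie in the shortest group.

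With offsets in the quasi-likelihood fit that take out a smooth trend in mRNA length and expression, the core median was 0.06 and the cap median 0.06, and their difference was -0.00097. Under these offsets 2 core genes had an unadjusted p under 0.05 in the higher direction, Psma2 (log2 fold change 0.38) and Psma3 (0.33), where 6.42% of all genes did. In the cap Psmd13 (0.38) remained higher and Psmd3 (-0.35) and Psmd11 (-0.30) remained lower, where 6.8% of all genes were lower. Psmb5 was at 0.15, Psmb6 at 0.0040 and Psmg4 at 0.16 in that fit, and none of the 4 ring chaperones had an unadjusted p under 0.05. With offsets on the gene length that the table gives, the difference of core and cap medians was 0.07. The offsets on mRNA length were chosen after these results had been seen.

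Levels differed widely between subunits that enter the particle in equal numbers. Per kb of the gene length in the table, the standard core genes had medians of 62.2, 61.2, 77.4 and 78.7 CPM per kb and the standard cap genes 51.0, 49.2, 45.8 and 55.6 CPM per kb. The order of the parts depends on the length scaling. With the medians averaged over all 4 libraries, saline and treated together, core over cap was 1.39 per kb but 0.900 in CPM. In treated replicate 1 the core median was the higher one in CPM as well, at 160 against 157 CPM. In saline replicate 1 the lowest core gene was Psma3 and the highest Psmb4, at 169 CPM per kb, and the cap ran from 24.4 CPM per kb for Psmd11 to 108 for Psmc5. In treated replicate 2 Psma6 was the highest core gene at 231 CPM per kb and Psma3 the lowest at 36.3. On this scale Psmd11 was the lowest standard cap gene in each of the 4 libraries. Its table length is 6383 bases and its median mRNA length 2237. In CPM it was at 156 in saline replicate 1, where Psmd6 was lower at 90.4. The ranks of single genes in core and cap thus also depend on the length used.

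The activators cap the core without ubiquitin. Psme1, a subunit of the interferon-inducible activator PA28, was at 300.1, 237, 369 and 289 CPM (log2 fold change 0.29, SE 0.20), with overlap. Its partner Psme2 (chromosome 14, 55587441 to 55591113) was at 128, 121, 211 and 148 CPM (0.53, SE 0.20), without overlap. Psme2b, a near-identical copy of Psme2 whose reads may be shared with it, was at 76.9, 76.5, 149.6 and 81.0 CPM (0.59, SE 0.29). Gm12185 (616 counts over the 4 libraries) and 9930111J21Rik1 (145 counts) overlap Psme2b on the same strand. The values of Psme2 and Psme2b rest on treated replicate 1, and without it the log2 fold changes were 0.25 and 0.08 (Psme1, 0.11). The nuclear activator Psme3 was at 134, 109, 111 and 115 CPM (-0.10, SE 0.15). Psme4, the large activator PA200, was at 127, 90.4, 76.3 and 88.1 CPM (-0.40, SE 0.20), and without saline replicate 1 its log2 fold change was -0.14. With the offsets on mRNA length, log2 fold changes were -0.023 for Psme1, 0.24 for Psme2 and 0.28 for Psme2b. Psme3 and Psme4 were each at 0.021 in that fit. The inhibitor Psmf1 was at 41.8, 39.2, 29.7 and 39.7 CPM (-0.22, SE 0.19), with overlap.

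The immunoproteasome subunits, which replace the catalytic subunits under interferon, split by library and not by group. Psmb8 was at 319.8, 278, 431 and 261 CPM, Psmb9 at 144, 115, 245 and 122 CPM and Psmb10 at 287, 213, 361 and 233 CPM. All 3 were highest in treated replicate 1, and their groups overlapped. Per kb of the table length, Psmb8 over its constitutive counterpart Psmb5 was 1.67, 1.45, 1.71 and 0.892, Psmb9 over Psmb6 was 0.592, 0.476, 0.827 and 0.393, and Psmb10 over Psmb7 was 5.24, 3.30, 6.40 and 3.69. Table lengths can differ much from median mRNA lengths, as for Psmb7 (3421 and 1160 bases), Psmb10 (1705 and 1311) and Psmb8 (3381 and 1628). The ratios can therefore be compared between libraries but not between pairs. Treated replicate 1 over replicate 2 was 2.01 for Psmb9, 1.85 for Psme2b, 1.65 for Psmb8, 1.55 for Psmb10 and 1.43 for Psme2. The summed level of 6 T cell markers, none of them at 0, was 40.8, 15.5, 81.1 and 22.6 CPM, highest in the same library. The summed markers of alveolar type 1 and type 2, airway, endothelial and B cells were also highest there, and the part of these cells in the levels was not tested.

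**Figure D4:**
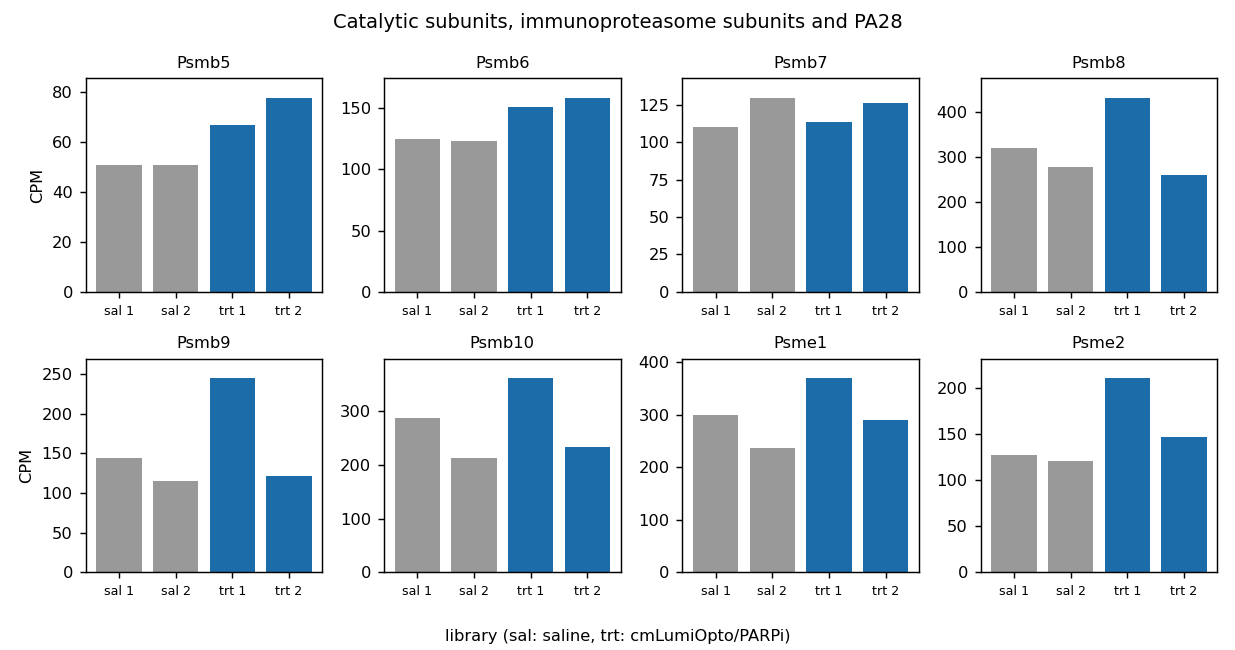
CPM (y axis, from 0, with its own scale in each panel) of the 3 catalytic subunits, the 3 immunoproteasome subunits and the PA28 subunits Psme1 and Psme2 in saline replicates 1 and 2 (sal, grey) and cmLumiOpto/PARPi replicates 1 and 2 (trt, blue), each bar being 1 library. Psmb5 and Psmb6 are higher in both treated libraries, while Psmb8, Psmb9, Psmb10, Psme1 and Psme2 are highest in treated replicate 1.

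Genes of the pathway around the particle went mostly the other way. Of 37 tested genes for ubiquitin, shuttle factors, Vcp cofactors, proteasome-associated enzymes and the Nfe2l1 route, 16 lay below the saline libraries (43.2%, beside 27.8% of all genes) and 4 above (10.8%, beside 27.4%), and 10 were lower with an unadjusted p under 0.05 (27.0%, beside 12% of all genes) and 0 higher (beside 9.21%). Nfe2l1 itself was at 475, 444, 399 and 368 CPM (log2 fold change -0.26, SE 0.14), below saline in both treated libraries, and its relative Nfe2l2 was at 110.5, 96.9, 117 and 111 CPM (0.14, SE 0.14). Vcp, the ATPase that extracts Nfe2l1 from the membrane and feeds substrates to the proteasome, was at 559, 542, 315 and 424 CPM (-0.57, SE 0.19). Ubb, which encodes polyubiquitin, was at 737, 811, 781 and 803 CPM (0.03, SE 0.15). Also lower at an unadjusted p under 0.05 were the ubiquitin-activating enzyme Uba1 (-0.49), the Vcp cofactor Nploc4 (-0.61), the shuttle and holdase genes Rad23b (-0.41), Ubqln1 (-0.37) and Bag6 (-0.54), the proteasome-bound ligase Ube3c (-0.44), the importin Ipo9 (-0.51) and the membrane adaptor Sel1l (-0.47). These genes had a median mRNA length of 3261 bases and a median log2 fold change of -0.18, and with the offsets on mRNA length the median was -0.08. Under these offsets most of those calls were lost, with 2 of the 37 genes lower at an unadjusted p under 0.05 (beside 6.8% of all genes) and 1 higher (beside 6.42%), and Sel1l was at -0.03 and Ipo9 at -0.06.

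RNA levels of the markers of some cell types differed between the groups. Summed markers of macrophages (1495, 1329, 1487 and 1158 CPM) and neutrophils (1128.5, 469, 746 and 1436 CPM) overlapped between them. So did those of T cells, endothelium, muscle and erythroid cells. All 8 airway cell markers lay above saline, where 27.4% of all tested genes did. Their sum was 87.1 to 1162 CPM in saline and 3152 to 5754 CPM in treated libraries. Of the 7 alveolar type 2 markers 6 lay above saline and 1 below (summed, 442 to 1682 CPM and 2909 to 8210 CPM). All 6 fibroblast markers lay below saline, where 27.8% of all tested genes did (summed, 3504 to 5087 CPM and 1634 to 1841 CPM). None of these markers was at 0. The list taken for tumour epithelium, of keratins, Epcam and Cdh1, summed to 3011 and 3390 CPM in saline and 2692 and 3850 CPM after treatment, with Krt5 at 0 in a library. These are general epithelial genes, so the sum does not separate tumour from lung epithelium and gives no tumour share. The part of all these cells in the levels of the proteasome genes was not tested.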

How the data were processed

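Bulk RNA-seq was performed on lung tissue with 4T1 metastases from 2 saline and 2 cmLumiOpto/PARPi samples. The authors mapped reads with HISAT2 and deposited raw, unnormalized counts of reads for each gene, together with gene positions, lengths and types. The counter and its strand setting were not given in the sources used here. The study's methods name GRCm38 and the submitters' processing notes mm39. Table positions equalled GENCODE M21 (GRCm38) for 2.85% of 52125 genes and for 0 of 48 members, while gene spans were equally long for all 48, so the gene coordinates given are those of M21.

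Counts were tested with edgeR 4.0.16 in R 4.3.3 (TMM, genes filtered by filterByExpr at a count of 10, then glmQLFit and glmQLFTest under default settings, Benjamini-Hochberg adjustment over 15167 genes, threshold 0.05). The standard error is the log2 fold change divided by the square root of F. Log2 CPM used a prior count of 2. The deposited gene length served for CPM per kb, and the mRNA length is the median over a gene's protein-coding transcripts in the M21 basic annotation. Offsets were loess trends (span 0.5). The methods were tested on simulated data. Totals of 15263375 to 16755228 counts set the precision, and the floor of 3 counts covers counting error only.

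Alternatives were DESeq2 1.42.0, other normalizations, no filter, offsets on length, a replicate block and leaving out each library. Every member was described by class. Values per library were given for the members with the highest and lowest fold change of each class, the catalytic subunits, Psmd14, Psmd2, Psmd4, the activators, inhibitor and chaperones, and selected pathway genes, and pathway genes with an unadjusted p under 0.05 were named, except 1 gene that is not reported here. Values for Psma1, Psma2, Psma3, Psma6, Psmd11 and Psme2b were added after they were seen. Members and lists were chosen with earlier results of these data known.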

Additional observations from a re-analysis of the deposited data

How the results depend on the processing

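The count of genes with an adjusted p under 0.05 (0 by the quasi-likelihood test) was 1011 with DESeq2, 2000 without the filter on low counts, 1822 with the replicate number as a block, 404 with the block and length offsets, and 0 to 2 without single libraries. Among the members it was 0, and 1 with DESeq2 (Psmd13), 1 without the filter (Psme2b), 2 with the replicate block (Psmd1 and Psmd13) and 0 to 0 without single libraries. Same-numbered libraries share only a number, and their distances from their group's mean were related over genes (Pearson's r 0.357, Spearman's rho 0.298). The count of core genes with an unadjusted p under 0.05 (5) was 3 with DESeq2, 9 with upper quartile scaling, 8 with library size alone, 1 without the filter, 2 with offsets on mRNA length, and 1 to 2 without single libraries. The difference of core and cap medians (0.19) was -0.00097 with offsets on mRNA length and 0.11 to 0.25 without single libraries. The shift of core minus cap in mean log2 CPM (0.18, with Psma8 included) was 0.25 over the standard subunits. It was 0.047 over members of at most 4000 bases in the table, and 0.061 to 0.30 without single libraries. Both the mRNA length offsets and the limit of 4000 bases were chosen after seeing the data, and the cause of each change was not tested. With 2 libraries a group, leaving one out assumes that the lone sample varies like the other group.

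The quasi-likelihood test called 0 genes, so none of the 51 named genes had an adjusted call that a reversal could undo. The log2 fold changes that reversed were, with upper quartile scaling, Psmc2 0.032, Psmd5 0.066 and Psme3 0.00044, with library size alone Psmd5 0.026, and without the filter Psmb7 -0.0098. With offsets on table length they were Psma5 -0.073, Psmc2 0.13, Psmc5 -0.0060, Psmc3ip -0.18, Psmd5 0.20, Nfe2l1 0.013 and Ubb -0.14, and with the replicate block added Psma5 -0.073, Psmc2 0.13, Psmc5 -0.0067, Psmc3ip -0.18, Psmd5 0.20, Nfe2l1 0.0100 and Ubb -0.14. With offsets on mRNA length they were Psmb7 -0.21, Psmc3ip -0.20, Psmd2 0.074, Psmd4 -0.11, Psmd5 0.24, Psme1 -0.023, Psme3 0.021, Psme4 0.021, Nfe2l1 0.10 and Ubb -0.0042. Without single libraries the genes that reversed ran from -1.57 to 0.19 (Psma8), -0.11 to 0.12 (Psmb7), -0.20 to 0.52 (Psmb8), -0.091 to 0.91 (Psmb9), -0.10 to 0.52 (Psmb10), -0.16 to 0.0031 (Psmc2), -0.12 to 0.37 (Psmc3ip), -0.13 to 0.16 (Psmd4), -0.18 to 0.084 (Psmd5), -0.24 to 0.050 (Psme3) and -0.034 to 0.10 (Ubb).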
